A study of Homo sapiens with 6 samples.

Results

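A set of 10 genes of the Notch pathway was followed in HEK293A cells given 20 nM VT01454 or vehicle: the receptors NOTCH1, NOTCH2 and NOTCH3, the ligands JAG1 and JAG2, the transcriptional repressors HES1, HES4, HEY1 and HEY2, and the feedback gene NRARP. The genes were taken by symbol from 60676 Ensembl gene IDs. All 10 passed the filter on low counts, among 15577 tested genes. The compound group held 3 libraries of cells given 20 nM VT01454 for 2 h, and the vehicle group held 3 libraries of cells given DMSO for the same time. HEK293A is a flat-growing subclone of HEK293, a line of transformed human embryonic kidney cells, so all 6 libraries come from 1 established cell line, and VT01454 is known here by its code name. The series title places the compound in work on phosphoinositides, their transfer proteins and the Hippo pathway; the question asked here is how Notch pathway transcripts stood after 2 h of treatment. Whether the libraries of a group stem from separate cultures is not in the labels, so the p-values below reflect only the spread between these libraries, which may be technical.

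Notch receptors are single-pass membrane proteins that are activated by ligands on a neighbouring cell. JAG1 and JAG2, or ligands of the Delta-like family, bind the receptor and are pulled back into the cell that carries them, which lets ADAM proteases and then gamma-secretase cut the receptor. The freed intracellular domain enters the nucleus, joins the DNA-binding protein RBPJ and a Mastermind coactivator, and raises transcription of HES, HEY and NRARP genes. HES and HEY proteins are basic helix-loop-helix repressors, and NRARP binds the receptor's intracellular domain and limits its output. In the developing kidney, Notch signalling takes part in the patterning of the nephron.

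RBPJ is known to bind the letters GTGGGAA, and the promoters of the target genes that hold these letters are shown because the pathway is known to act through such sites. Among the 10 genes, 9 had a promoter window in RefSeq (GRCh38.p14), each of 300 bases that run from 250 before the transcript start to 50 after it; HEY1 had none and was not searched. GTGGGAA was found on either strand in 3 of the 9 windows, those of HES1, HES4 and HEY2, and in 6.25% of the 35116 RefSeq windows. The match began 85 bases before the start in HES1 and 77 bases before it in HES4. HEY2 had 2 matches, which began 213 bases before the start, as the reverse complement TTCCCAC, and 4 bases before it. The windows are HES1 at chr3:194135898-194136197 on the plus strand, HES4 at chr1:1000048-1000347 on the minus strand and HEY2 at chr6:125749382-125749681 on the plus strand. Each is printed 5′ to 3′ along its gene, with the RBPJ letters in capitals.
HES1: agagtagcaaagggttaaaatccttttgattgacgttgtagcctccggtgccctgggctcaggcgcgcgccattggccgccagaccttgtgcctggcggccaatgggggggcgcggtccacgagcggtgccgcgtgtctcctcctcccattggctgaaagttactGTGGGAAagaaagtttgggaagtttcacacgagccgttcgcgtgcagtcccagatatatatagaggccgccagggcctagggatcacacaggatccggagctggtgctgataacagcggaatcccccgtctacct
HES4: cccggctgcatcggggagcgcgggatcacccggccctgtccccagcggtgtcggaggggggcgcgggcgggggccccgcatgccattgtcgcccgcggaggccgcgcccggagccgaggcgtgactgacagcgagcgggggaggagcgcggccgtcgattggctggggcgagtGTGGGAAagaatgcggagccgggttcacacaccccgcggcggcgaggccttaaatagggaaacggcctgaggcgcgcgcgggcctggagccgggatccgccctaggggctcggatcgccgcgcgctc
HEY2: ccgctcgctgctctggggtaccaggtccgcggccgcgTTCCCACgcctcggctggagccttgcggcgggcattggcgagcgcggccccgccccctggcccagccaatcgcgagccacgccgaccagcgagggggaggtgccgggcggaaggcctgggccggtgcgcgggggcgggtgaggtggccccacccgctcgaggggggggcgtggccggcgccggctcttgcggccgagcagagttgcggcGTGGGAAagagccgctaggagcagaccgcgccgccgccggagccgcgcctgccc

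The letters GCGTGGGCG, bound by EGR factors, were found in the windows of NOTCH3 and NRARP, and in 0.795% of all windows. The AP-1 letters TGACTCA were found in none of the 9 windows, against 4.95% of all windows. The TEAD letters GGAATG were likewise found in none of the 9, against 14.0% of all windows. Both strands were searched each time, and a match or its absence describes these windows alone.

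Libraries held 24646466 to 28880374 counts with VT01454 and 19126039 to 26879796 with vehicle, and the difference in mean total was within the libraries' spread (p = 0.3 in an exact two-sided permutation test, whose smallest possible p is 0.1). Levels are given as counts scaled to a library total of 1000000 (CPM), with library sizes adjusted by edgeR's TMM factors. Vehicle libraries differed more from each other than VT01454 libraries did. The chi-square per degree of freedom over genes was 1.99 to 2.66 between VT01454 libraries and 7.16 to 17.9 between vehicle libraries. Between a vehicle and a VT01454 library it was 6.91 to 16.3, a range close to that between vehicle libraries. Vehicle libraries 2 and 3 stood apart in opposite ways by transcript length and GC content. For genes with a longest transcript over 8000 bases, the median log2 deviation from the other 2 vehicle libraries was -0.25 in vehicle library 2 and 0.20 in vehicle library 3. For genes with a GC content of 65 to 70%, it was 0.17 in vehicle library 2 and -0.22 in vehicle library 3. Of the markers used to check the cell line, the neurofilament and vimentin list summed to 967 to 972 CPM with VT01454 and to 919 to 1043 CPM with vehicle, nearly all of it from NEFL and VIM. Of 5 kidney lineage transcription factors, SALL1 and WT1 made up most of a sum of 37.3 to 41.9 CPM with VT01454 and 31.0 to 36.7 CPM with vehicle, and PAX2, PAX8 and LHX1 were near 0. Leukocyte, endothelial and squamous epithelial lists each summed to under 3 CPM in every library, with PTPRC and CD3E at 0, and the fibroblast list summed to 22.9 to 33.5 CPM with VT01454 and 25.8 to 38.7 CPM with vehicle. No gene of these lists passed the test. In bulk libraries such as these, fewer cells that express a gene and less RNA per cell cannot be told apart.

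HEY1 rose with VT01454, by 1.26-fold, and it was the only one of the 10 genes to pass the test (edgeR's quasi-likelihood test, two-sided, adjusted over all tested genes by Benjamini-Hochberg, threshold 0.05). HEY2, JAG1 and NOTCH1 had VT01454 libraries that were all above the vehicle libraries, by 1.25-fold, 1.21-fold and 1.19-fold, and did not pass. HES1, JAG2 and NRARP had nearly equal group means, and HES4 varied more within the vehicle group than between the groups. Thus 1 of 10 was called higher, where 1.27% of all tested genes were called higher, and 0 of 10 were called lower, where 0.616% were; in either direction 1.89% of tested genes, or 294, were called. The groups did not overlap, with VT01454 higher, for 4 of the 10 genes and for 11.3% of tested genes, and with VT01454 lower for 0 of the 10 and for 9.84% of tested genes. An unadjusted p below 0.05 was reached by the same 4 genes, all higher, against 14.4% of tested genes in either direction. DESeq2 and limma-voom each called HEY1 alone of the 10. The median log2 fold change of the 10 genes was 0.15, with a range of -0.22 to 0.33 and 8 of 10 above 0, and that of all tested genes was -0.0073. Over all tested genes the log2 fold change itself rose with transcript length. Its median was -0.080 for longest transcripts up to 1000 bases and 0.083 for those over 8000 bases. The part of transcript length in the values of the 10 genes was not tested. The members were chosen with results of these data known, so no test is given for them as a group.

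**Figure D1:**
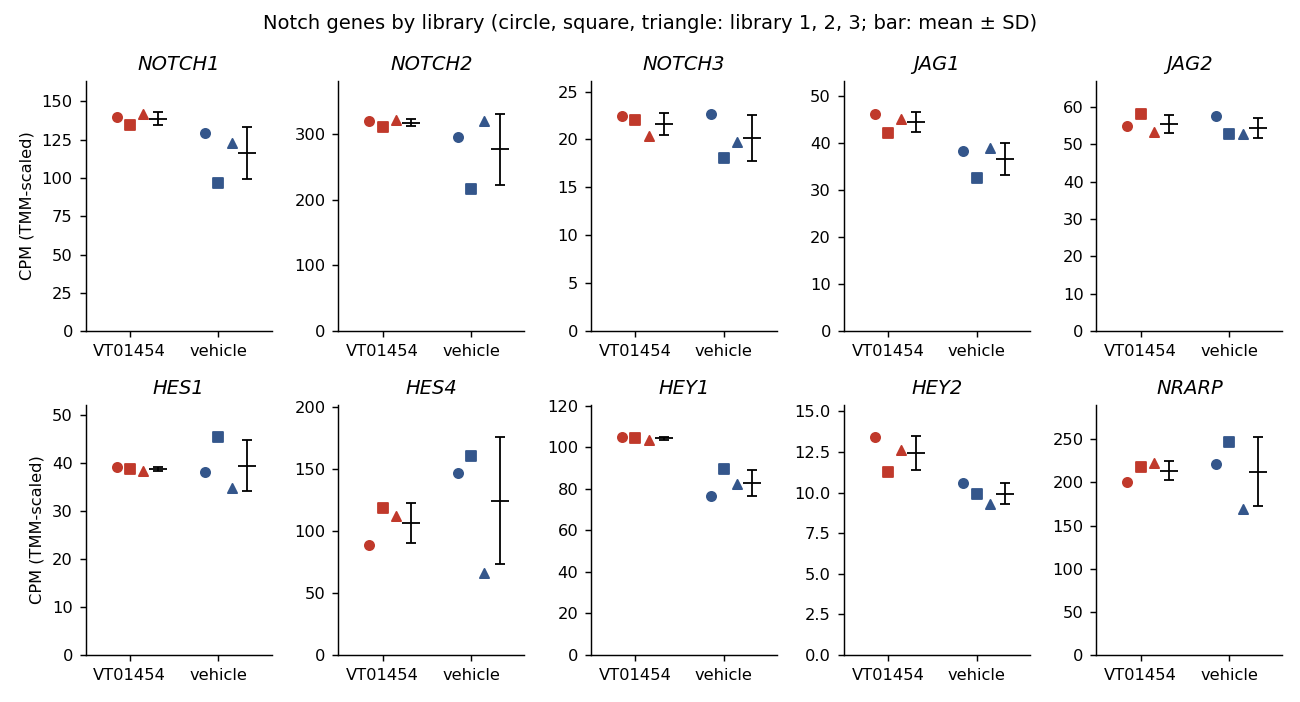
TMM-scaled CPM of each Notch gene in every library, VT01454 in red and vehicle in blue, with library 1 as a circle, 2 as a square and 3 as a triangle and the mean ± SD as a bar (n = 3 each). HEY1, HEY2, JAG1 and NOTCH1 have all VT01454 points above all vehicle points; HES4 has the widest vehicle spread relative to its mean.

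HEY1, a repressor that forms dimers with HES proteins and is known from vascular and cardiac development, lies on chromosome 8 at 79764010 to 79767863 on the minus strand (ENSG00000164683, GRCh38, GENCODE 29). Its level was 105, 105 and 103 CPM in the VT01454 libraries, against 76.7, 89.4 and 82.3 CPM in the vehicle libraries. The 3 VT01454 values lay within 2 CPM of each other and above all vehicle values, the nearest of which was vehicle library 2. The means were 104.3 ± 0.846 CPM with VT01454 and 82.8 ± 6.38 CPM with vehicle (SD, n = 3 each), from 2527 to 2986 counts and 1625 to 2230 counts per library. The log2 fold change was 0.33 ± 0.07 (SE; 95% interval 0.19 to 0.48), with an edgeR adjusted p of 0.0218. The call was lost without vehicle library 1 (log2 fold change 0.28, edgeR adjusted p 0.142) and without any 1 VT01454 library (0.33, 0.33 and 0.34; edgeR adjusted p 0.128 to 0.147). It was kept without vehicle library 2 or 3 and with DESeq2, limma-voom and every other setting tried. HEY1 has a GC content of 47.3% and a longest transcript of 2296 bases; vehicle libraries 1, 2 and 3 deviated by -0.16, 0.17 and -0.0082 on the log2 scale from the mean of the other 2 vehicle libraries. With offsets for length and GC content, chosen after seeing the data, its log2 fold change was 0.38 and its edgeR adjusted p 1.2e-04.

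HEY2, the close relative of HEY1, lies on chromosome 6 at 125747664 to 125761269 on the plus strand. Its level was 13.4, 11.3 and 12.6 CPM with VT01454, against 10.6, 9.92 and 9.30 CPM with vehicle. The groups did not overlap, but VT01454 library 2 and vehicle library 1 were less than 1 CPM apart. HEY2 had a log2 fold change of 0.33 ± 0.10 (SE; 95% interval 0.10 to 0.55), as large as that of HEY1, with an edgeR adjusted p of 0.166. HEY2 rested on fewer reads, 281 to 382 counts with VT01454 and 190 to 252 with vehicle. The length and GC offsets were the only alternative to bring it past the threshold (log2 fold change 0.37, edgeR adjusted p 0.0445). The antisense gene HEY2-AS1 overlaps it and had 10 to 25 counts in all 6 libraries, and since the strand setting of the counting is not given, reads of the 2 genes may be mixed.

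HES1, the repressor best known as a direct Notch target and one of the genes whose promoter window is shown above, lies on chromosome 3 at 194136145 to 194138732 on the plus strand. Its level was 39.1, 38.8 and 38.3 CPM with VT01454, against 38.2, 45.3 and 34.8 CPM with vehicle. All VT01454 values lay inside the vehicle range. On the log2 scale the difference was -0.02 ± 0.09 (SE; 95% interval -0.21 to 0.17; edgeR adjusted p 0.936). Its sign turned without vehicle library 2 (0.091) and with the length and GC offsets (0.054).

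HES4, a HES repressor with no mouse counterpart, lies on chromosome 1 at 998962 to 1000172 on the minus strand. Its level was 88.5, 119 and 112 CPM with VT01454, against 147, 161 and 65.9 CPM with vehicle. Vehicle library 3 was the lowest of all 6 libraries and vehicle libraries 1 and 2 were the highest, so the vehicle range spanned every VT01454 value. Between groups the log2 fold change was -0.22 ± 0.39 (SE; 95% interval -1.29 to 0.84), with an edgeR adjusted p of 0.837, the widest interval of the 10 genes. It became 0.012 without vehicle library 2 and -0.53 without vehicle library 3 (edgeR adjusted p 0.0582). HES4 has the highest GC content of the set, 73.9%, and a longest transcript of 1040 bases; it deviated by 0.70 in vehicle library 2 and by -1.21 in vehicle library 3 on the log2 scale, where the 51 tested genes with a GC content above 70% had medians of 0.36 and -0.44. With the length and GC offsets, the log2 fold change of HES4 was -0.11, and it was not called. The part of GC content alone in the HES4 values was not tested.

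NRARP, the feedback gene, lies on chromosome 9 at 137300482 to 137302251 on the minus strand. Its level was 201, 218 and 222 CPM with VT01454, against 222, 247 and 169 CPM with vehicle. The vehicle libraries spanned the VT01454 libraries, with the same order among vehicle libraries as for HES4. The means were 214 ± 11.3 CPM with VT01454 and 213 ± 39.7 CPM with vehicle (SD, n = 3 each), and the log2 fold change was 0.0077 ± 0.12 (SE; 95% interval -0.27 to 0.29; edgeR adjusted p 0.981). The sign of so small a value turned in 4 of 14 alternatives. With a GC content of 67.3%, NRARP deviated by 0.35 in vehicle library 2 and -0.47 in vehicle library 3. Its GC class had medians of the same signs, 0.17 and -0.22, and so did its length class, 0.15 and -0.12. The part of GC content or of transcript length in the NRARP values was not tested.

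JAG1, the ligand whose loss of function causes Alagille syndrome, lies on chromosome 20 at 10637684 to 10673999 on the minus strand. Its level was 46.2, 42.1 and 45.0 CPM with VT01454, against 38.3, 32.6 and 38.9 CPM with vehicle. Every VT01454 library was above every vehicle library. JAG1 had a log2 fold change of 0.28 ± 0.08 (SE; 95% interval 0.10 to 0.45), with an edgeR adjusted p of 0.123. JAG1 passed the threshold with no count filter (edgeR adjusted p 0.0182), without vehicle library 3 (0.0198) and with the length and GC offsets (0.0224), and did not pass in the other 11 alternatives. JAG2, the second Jagged ligand, lies on chromosome 14 at 105140981 to 105168824 on the minus strand. Its level was 54.7, 58.2 and 53.3 CPM with VT01454, against 57.5, 52.7 and 52.9 CPM with vehicle. The JAG2 groups overlapped, and the log2 fold change was 0.03 ± 0.07 (SE; 95% interval -0.12 to 0.17; edgeR adjusted p 0.873). Whether JAG1 and JAG2 differ in their response was not tested; the ratio of JAG1 to JAG2, each per length, was 0.581, 0.497 and 0.580 in the VT01454 libraries, against 0.459, 0.425 and 0.506 in the vehicle libraries, and these ranges overlap.

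The receptors NOTCH1 and NOTCH2 are broadly expressed, whereas NOTCH3 is known chiefly from vascular smooth muscle. NOTCH1 lies on chromosome 9 at 136494433 to 136545786 on the minus strand. Its level was 139.9, 134 and 142 CPM with VT01454, against 129, 96.9 and 123 CPM with vehicle. Vehicle library 2 was well below all others, and the groups did not overlap. NOTCH1 had a log2 fold change of 0.25 ± 0.09 (SE; 95% interval 0.06 to 0.45), with an edgeR adjusted p of 0.225; without vehicle library 2 it was 0.14. NOTCH1 passed with no count filter (edgeR adjusted p 0.0095) and in no other alternative.

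NOTCH2, which lies on chromosome 1 at 119911553 to 120069626 on the minus strand, had 319, 311 and 322 CPM with VT01454, against 295, 216 and 319.6 CPM with vehicle. Vehicle library 3 stood among the VT01454 libraries and vehicle library 2 was again the lowest. The log2 fold change was 0.19 ± 0.13 (SE; 95% interval -0.09 to 0.48; edgeR adjusted p 0.521), and 0.046 without vehicle library 2. The NOTCH2NL genes, near-identical copies of part of NOTCH2, may make some of the NOTCH2 counts uncertain. NOTCH2NLA had 2 to 8 counts, NOTCH2NLC 8 to 24 counts and NOTCH2NLB 0 counts in every library. NOTCH3, on chromosome 19 at 15159038 to 15200981 on the minus strand, had 22.5, 22.0 and 20.4 CPM with VT01454, against 22.7, 18.1 and 19.7 CPM with vehicle. The NOTCH3 groups overlapped, and the log2 fold change was 0.10 ± 0.09 (SE; 95% interval -0.10 to 0.31; edgeR adjusted p 0.659). All receptors have longest transcripts over 8000 bases. On the log2 scale, NOTCH1, NOTCH2 and NOTCH3 deviated by -0.38, -0.50 and -0.22 in vehicle library 2. Genes of that length had a median of -0.25 in that library. By GC content, the median there was 0.093 for the class of NOTCH1 and NOTCH3, the opposite sign, and -0.015 for the class of NOTCH2. With the length and GC offsets, the log2 fold changes of NOTCH1, NOTCH2 and NOTCH3 were 0.22, 0.16 and 0.066, and none was called. The part of transcript length or of GC content alone in the receptor values was not tested.

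**Figure D2:**
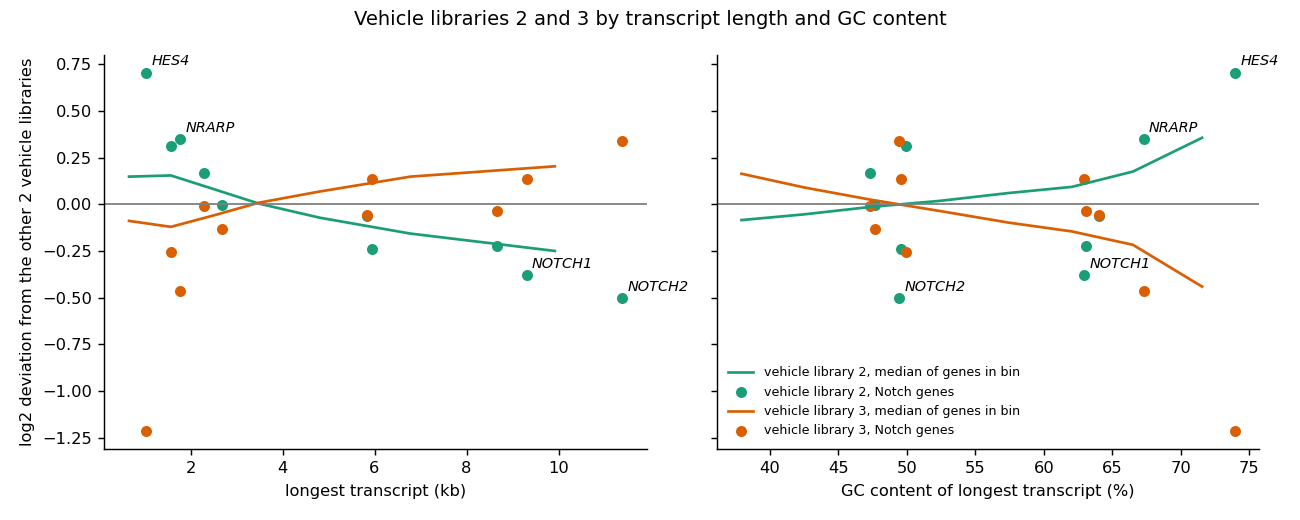
Log2 deviation of vehicle library 2 (green) and vehicle library 3 (orange) from the mean of the other 2 vehicle libraries, against the length in kb (left) and the GC content in percent (right) of the longest transcript. Lines join medians of tested genes by class, set at the median length or GC content of the class, and points are the 10 Notch genes; NOTCH1 and NOTCH2 lie below 0 in vehicle library 2, and HES4 lies at 0.70 and -1.21.

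**Figure D3:**
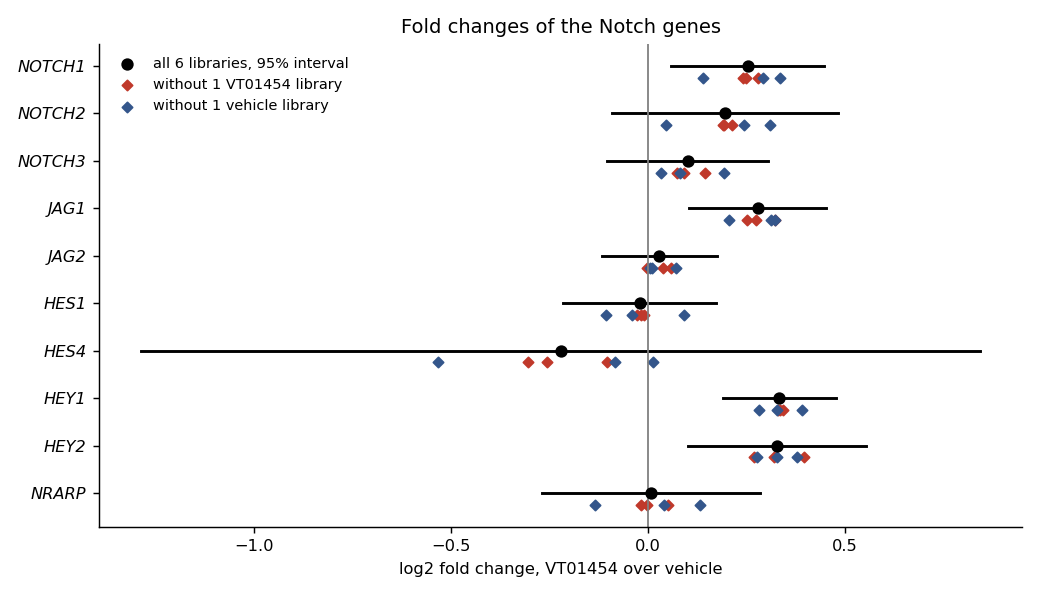
Log2 fold change of VT01454 over vehicle for each Notch gene with its 95% interval (black), and the values with 1 VT01454 library (red) or 1 vehicle library (blue) left out. HEY1, HEY2, JAG1 and NOTCH1 have intervals and left-out values above 0, and HES4 has the widest interval.

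Per kilobase of exon (RPKM over the union of exons), NRARP and HES4 stood highest and NOTCH3 lowest. NRARP averaged 121 ± 6.38 RPKM with VT01454 and 120.1 ± 22.4 RPKM with vehicle, and HES4 averaged 95.1 ± 14.2 RPKM with VT01454 and 111 ± 45.7 RPKM with vehicle (SD, n = 3 each). HEY1 came next, with 32.3 ± 0.262 RPKM with VT01454 and 25.6 ± 1.97 RPKM with vehicle. HES1, NOTCH2, NOTCH1, JAG2, JAG1, HEY2 and NOTCH3 followed in that order of mean level, with group means between 2.15 and 19.1 RPKM. The ranges over libraries overlapped between NRARP and HES4, HES1 and NOTCH2, NOTCH2 and NOTCH1, and JAG1 and HEY2, so the order of those neighbours is not resolved. Of the 4 repressors, HES4 was thus the highest per length, HEY1 the next and HEY2 the lowest. HEY1 stood at 1.71, 1.72 and 1.72 times HES1 per length in the VT01454 libraries, against 1.28, 1.26 and 1.51 times in the vehicle libraries. This ratio did not overlap between the groups and varied less among VT01454 libraries. The ratio of HEY1 to HEY2 was 7.14 ± 0.645 with VT01454 and 7.09 ± 0.840 with vehicle (SD, n = 3 each), a difference smaller than the spread between libraries.

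**Figure D4:**
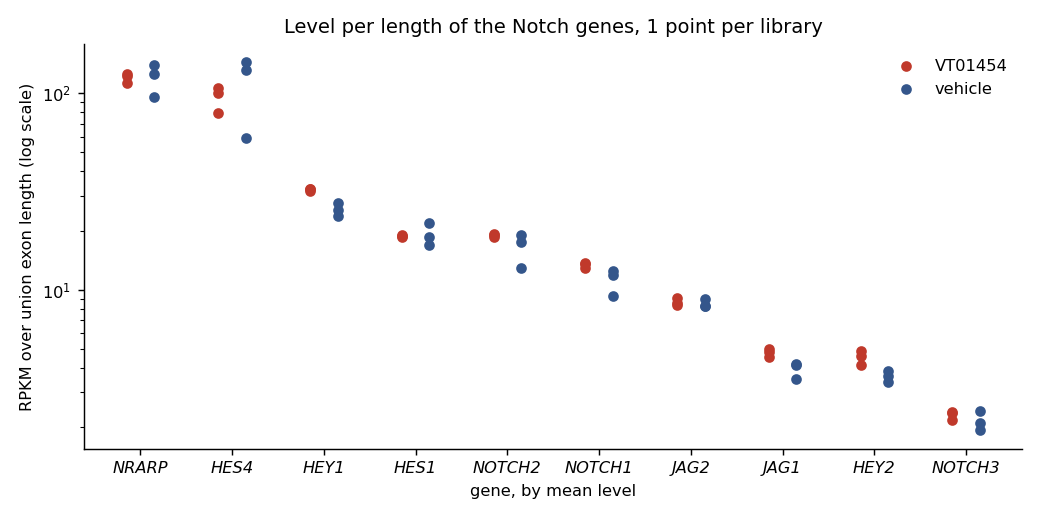
Level of each Notch gene in RPKM over its union exon length (log axis), 1 point per library, VT01454 in red and vehicle in blue, with genes ordered by mean level. NRARP and HES4 lie highest and overlap each other; HEY1 lies between them and HES1.

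The rest of the pathway was described from a list of 67 further genes, of which 58 were tested. The corepressors TLE4 and TLE3 and the cell cycle inhibitor CDKN1A rose, and none fell: 3 of 58 were called higher and 0 lower, where 1.27% and 0.616% of all tested genes were. An unadjusted p below 0.05 was reached by 15 of the 58, of which 2, DNER and POFUT1, were lower, against 14.4% of all tested genes in either direction. DESeq2 called the same 3 genes higher, of 48 to which it gave an adjusted p, and limma-voom called TLE4 and TLE3; neither called any lower. Over the list, the median log2 fold change was 0.03 for the 58 genes, against -0.0073 over all tested genes, and 34 of 58 were above 0. Of the 9 genes not tested, 5 were at 0 in every library: the ligand DLL1, the receptor NOTCH4, NOTCH2NLB, and the repressors HES3 and HES5.

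TLE proteins are Groucho-type corepressors, which HES proteins recruit through a C-terminal motif. TLE4, on chromosome 9 at 79571773 to 79726882, had 73.8, 74.0 and 72.8 CPM with VT01454, against 56.3, 55.6 and 55.5 CPM with vehicle. Both groups were tight and far from overlapping. The rise was 1.32-fold (log2 fold change 0.40 ± 0.06, SE; edgeR adjusted p 0.0030), and it was called in all 14 alternatives, with edgeR adjusted p up to 0.0395 when a library was left out.

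TLE3, on chromosome 15 at 70047790 to 70098176, had 224, 223 and 218 CPM with VT01454, against 195, 180.1 and 181 CPM with vehicle. The rise was 1.20-fold (log2 fold change 0.26 ± 0.06, SE; edgeR adjusted p 0.0333). The TLE3 call was lost with library size alone as the scaling (edgeR adjusted p 0.0587), without vehicle library 1 (0.0777) and without any 1 VT01454 library (0.183 to 0.210). Of the other 8 corepressors, which include SPEN, NCOR1 and TLE1, none was called in the main fit. TLE1 was at 0.16 ± 0.06 (SE; edgeR adjusted p 0.270) and was called with the length and GC offsets. The groups did not overlap, with VT01454 higher, for 5 of the 10 corepressors and for 11.3% of tested genes. With VT01454 lower, the groups did not overlap for 0 of the 10 and for 9.84% of tested genes. CDKN1A, which encodes p21 and is reported as a Notch target in keratinocytes, had 38.4, 35.7 and 37.2 CPM with VT01454, against 30.0, 31.4 and 28.9 CPM with vehicle. The rise of CDKN1A was 1.23-fold (log2 fold change 0.30 ± 0.07, SE; edgeR adjusted p 0.0492), just inside the threshold, and the call was lost in 7 of 14 alternatives, among them limma-voom (adjusted p 0.0518).

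No other role gave a call. Of the nuclear complex, all 7 tested genes had log2 fold changes above 0, with a median of 0.14, and none passed; of all 15577 tested genes, 7539 were above 0. Among them the Mastermind coactivators MAML2 (0.39 ± 0.12, SE; edgeR adjusted p 0.147) and MAML1 (0.19 ± 0.07; 0.239) came nearest to the threshold. The longest transcripts of the nuclear complex genes ran from 2163 bases (SNW1) to 9587 bases (EP300). Over that range the median of all tested genes rose with length. Among the 8 genes of receptor cleavage, the protease ADAM10 was at 0.18 ± 0.08 (SE; edgeR adjusted p 0.326). The fucosyltransferase POFUT1 was at -0.12 ± 0.05 (SE; edgeR adjusted p 0.344) and the glucosyltransferase POGLUT1 at -0.08 ± 0.07 (0.625). The ligand ubiquitin ligases MIB1 and NEURL1 were at 0.20 ± 0.10 (SE; edgeR adjusted p 0.426) and -0.25 ± 0.20 (0.607). The Notch inhibitor NUMB was at 0.15 ± 0.06 (SE; edgeR adjusted p 0.294) and the ubiquitin ligase DTX2 at 0.31 ± 0.17 (0.415). Of the other HES and HEY genes, HEYL was at -0.16 ± 0.10 (SE; edgeR adjusted p 0.495) and HES7, at under 1 CPM in either group, at -0.55 ± 0.36 (0.516). The reported target CCND1, cyclin D1, was at 0.15 ± 0.06 (SE; edgeR adjusted p 0.238), and the receptor-related NOTCH2NLC at -0.24 ± 0.37 (0.800).

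Among the other ligands, the non-canonical ligand DNER varied widely, with 2.67, 0.281 and 0.776 CPM in the VT01454 libraries, against 4.20, 7.78 and 3.62 CPM in the vehicle libraries. The groups did not overlap, but VT01454 library 1 was well above the other VT01454 libraries. The log2 fold change of DNER was -2.01 ± 0.77 (SE; edgeR adjusted p 0.345), and it was -3.27 without VT01454 library 1, where it passed (edgeR adjusted p 0.0130). DLK1, an imprinted membrane protein related to Notch ligands and named here after its values were seen, had 58, 0 and 0 counts in the VT01454 libraries, against 68, 126 and 58 counts in the vehicle libraries. VT01454 library 1 again stood apart from the other VT01454 libraries, and DLK1 did not pass (edgeR adjusted p 0.507), but it too was called lower without that library. DLK2 was at 0.49 ± 0.24 (SE; edgeR adjusted p 0.373). DLL3 and DLL4, at 9.13 and 0.820 CPM with VT01454 and 9.45 and 0.860 CPM with vehicle, were also not called.

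**Figure D5:**
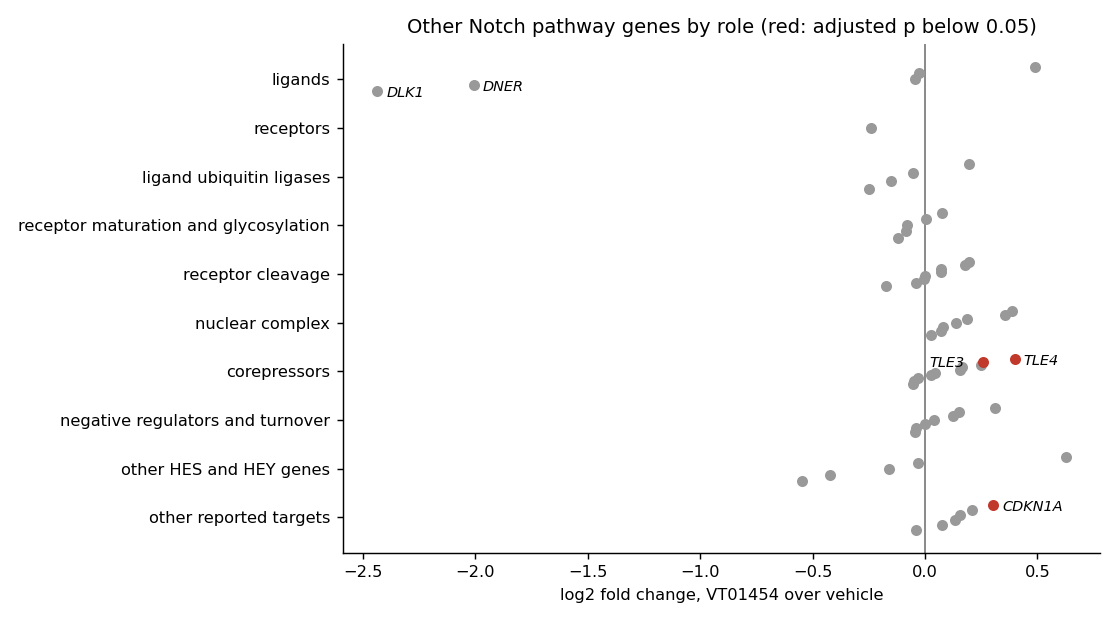
Log2 fold change of VT01454 over vehicle for the 58 tested genes of the wider pathway list, 1 point per gene, by role. Red points are TLE4, TLE3 and CDKN1A, called at an edgeR adjusted p below 0.05; DNER and DLK1 lie farthest to the left and were not called.

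The genes whose levels followed HEY1 most closely over the 6 libraries, among 10671 tested genes with a mean of at least 5 CPM, were HBP1, PAM and ING3, with Pearson r on log2 CPM of 0.996, 0.995 and 0.995. Over all these genes the median r was 0.040 and the 95th percentile 0.82; the 6 points share the 2 groups and their libraries, so r is a description. HBP1, an HMG-box repressor, had 17.5, 17.9 and 17.3 CPM with VT01454, against 10.9, 13.2 and 12.0 CPM with vehicle, and was itself called higher (log2 fold change 0.55 ± 0.09, SE; edgeR adjusted p 0.0080). PAM, which amidates peptides, and ING3, a chromatin reader, were not called (log2 fold changes 0.11 and 0.16; edgeR adjusted p 0.396 and 0.297). HBP1, PAM and ING3 each shared with HEY1 the order of the vehicle libraries (2, 3, 1 from high to low). Since the 3 genes were picked by r over these same libraries, that match largely follows from the choice. None of the 3 shared the order of the VT01454 libraries, where HEY1 was nearly equal in libraries 1 and 2. Within the Notch set, r with HEY1 was 0.76 for HEY2, 0.64 for JAG1, 0.43 for NOTCH1 and 0.17 for HES1. It was 0.26 for NOTCH2, 0.17 for NRARP, 0.15 for NOTCH3, 0.031 for JAG2 and -0.10 for HES4.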

How the data were processed

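Per the labels' protocols, total RNA (RNeasy Plus) went into NEBNext Ultra II RNA libraries. Each library's deposited table holds the authors' raw counts by Ensembl gene ID; HISAT2 2.2.1, HTSeq 0.9.1 and hg38 are named per the submitters' processing notes. Annotation release, strand setting and multi-mapping rules were not given in the sources used here. Counts were tested with edgeR 4.0.16 in R 4.3.3 (filterByExpr, TMM, robust quasi-likelihood F-test, two-sided, no covariate, Benjamini-Hochberg over all 15577 tested genes, threshold 0.05 on the adjusted p). The SE is the log2 fold change over the root of F. CPM and RPKM were computed from the counts and TMM-scaled library sizes, with exon lengths, coordinates and GC content from GENCODE 29; symbols were matched for 60357 of 60676 IDs. Covering counting error only, a count of 0 allows 3 counts (0.104 to 0.157 CPM). The code was tested on simulated counts. Alternatives were DESeq2 1.42.0, limma-voom (limma 3.58.1), the replicate block, a filter at a mean of 1 CPM or none, scaling by library size or by DESeq2 size factors, leaving out each library and, added after seeing the data, length and GC offsets. Named are all 10 members, called genes of the wider list, the 2 smallest p per role, and the 3 genes most like HEY1; a result that this rule names is not reported here. Members and lists were chosen with earlier results of these data known.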

Additional observations from a re-analysis of the deposited data

How the results depend on the processing

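The count of called genes, 294, was within 1.5 times under DESeq2 (419), limma-voom (277), DESeq2 size factors, library size alone, a filter at a mean of 1 CPM and the replicate block; it was 713 with no count filter, 803 with length and GC offsets, and 93 (without vehicle library 1) to 1806 (without vehicle library 3) when a library was left out. Of the 10 Notch genes, 3 were called with no count filter (NOTCH1, JAG1, HEY1), 3 with the offsets (JAG1, HEY1, HEY2), and 0 to 2 when a library was left out. Of the wider list, 1 was called with library size alone, 5 with no count filter, 7 with the offsets, and 1 to 11 when a library was left out. The log2 fold change of HEY1 lay between 0.28 and 0.39 when a library was left out; the 4 such fits without a HEY1 call made 93 to 136 calls over all genes. With longest transcripts in place of union exons, 8 of the 10 genes kept their rank by level, HES1 and NOTCH2 changing places.

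Signs turned for 4 genes that had not been called: JAG2 was at -0.0031 without VT01454 library 2; HES1 at 0.091 without vehicle library 2 and 0.054 with the offsets; HES4 at 0.012 without vehicle library 2; NRARP at -0.015 with library size alone, -0.14 without vehicle library 3, -0.0032 without VT01454 library 2 and -0.018 without VT01454 library 3. Of 140 values of Notch genes under alternatives, 123 kept direction and side of the threshold, 4 lost the call and 5 gained one. Over the fits with a library left out, JAG2 ranged from -0.0031 to 0.071, HES1 from -0.11 to 0.091, HES4 from -0.53 to 0.012 and NRARP from -0.14 to 0.13. The cause of these changes was not tested.

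Whether replicate numbers mark a shared culture or day is not in the labels. Deviations of same-numbered libraries correlated at -0.070, 0.028 and -0.014, and those of differently numbered libraries at -0.047 to 0.058. With 3 libraries a group, these values cannot settle whether the libraries are paired. With the replicate block, 339 genes were called, HEY1 was at 0.34 (edgeR adjusted p 0.0157), and 1 Notch gene and 2 of the wider list were called. With 3 libraries a group, the 95% interval was widest for HES4 (-1.29 to 0.84) and then NOTCH2 (-0.09 to 0.48).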
